A study of Mus musculus with 2 samples.

Results

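The genes described are 10 mouse genes of selenium recycling and selenium-dependent enzymes: Scly, Sephs1, Sephs2, Secisbp2, Gpx1, Gpx3, Gpx4, Txnrd1, Txnrd2 and Dio1. They were chosen by gene symbol around Scly, whose difference between the 2 arrays was already known, so every difference below is a description and none was tested. Of the 10, 9 had a probe set among the 15644 named genes of the table, and Gpx4, the phospholipid hydroperoxide glutathione peroxidase, was not analysed here. The cells were primary hepatocytes from a male C57BL/6 mouse of 9 weeks, which had been in culture for 24 h. They were then kept for 12 h with 10 µmol/l pregnenolone 16α-carbonitrile (PCN) or with its solvent dimethyl sulfoxide (DMSO). PCN, a synthetic steroid, is a ligand of the rodent pregnane X receptor (PXR), which controls genes of drug metabolism. Each group was 1 Affymetrix array of RNA pooled from 3 samples, so there were no replicates and the spread between cultures is unknown.

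Selenium acts in mammals mainly as selenocysteine, an amino acid that is inserted at UGA codons which would otherwise stop translation. The cell makes selenophosphate from selenide, builds selenocysteine on its own transfer RNA, and reads it into protein with the help of a hairpin in the messenger RNA. Selenocysteine lyase, encoded by Scly, takes selenocysteine from degraded proteins apart and returns the selenium to this route. The liver is the main site where selenium is packed into the plasma carrier selenoprotein P, and its glutathione peroxidases, thioredoxin reductases and type 1 deiodinase are selenoenzymes. The comparison asked whether selenoprotein genes differed between PCN and DMSO along with Scly.

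In the reported setting, Scly and Gpx3 were lower in the PCN array by more than 1.5-fold. The other 7 measured members stayed within a smaller threshold there. That threshold was an intensity 20% lower or 25% higher with PCN, which is the same ratio in both directions. Scly was 1.98-fold lower, close to 2-fold, and Gpx3 was 1.66-fold lower. Of the remaining 7, Dio1 was lower by just under this threshold, and Gpx1 was nearly equal in the arrays. Dio1 passed the threshold with median centring (-0.35 on the log2 scale) and with loess (-0.33). In all, 7 of the 9 were lower and 2 were higher with PCN (8 and 1 with median centring, where Gpx1 changed sign), where 42.4% of the 6449 measured genes were lower. A gene counted as measured if its GCRMA intensity reached a floor of 32 (5 on the log2 scale) in at least 1 array. All 9 members with a probe set reached it in both. The 2 members past 1.5-fold stand beside 1.94% of measured genes past it in either direction and 1.30% past it in the lower direction. At the smaller threshold the count of members was again 2 in the reported setting, beside 11.4% of measured genes, and Dio1 joined them with median centring or loess. The median log2 difference, PCN minus DMSO, was -0.12 over the 9 members and 0.03 over all measured genes. Since Scly was picked for its difference, these shares and medians support nothing about the group.

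**Figure D1:**
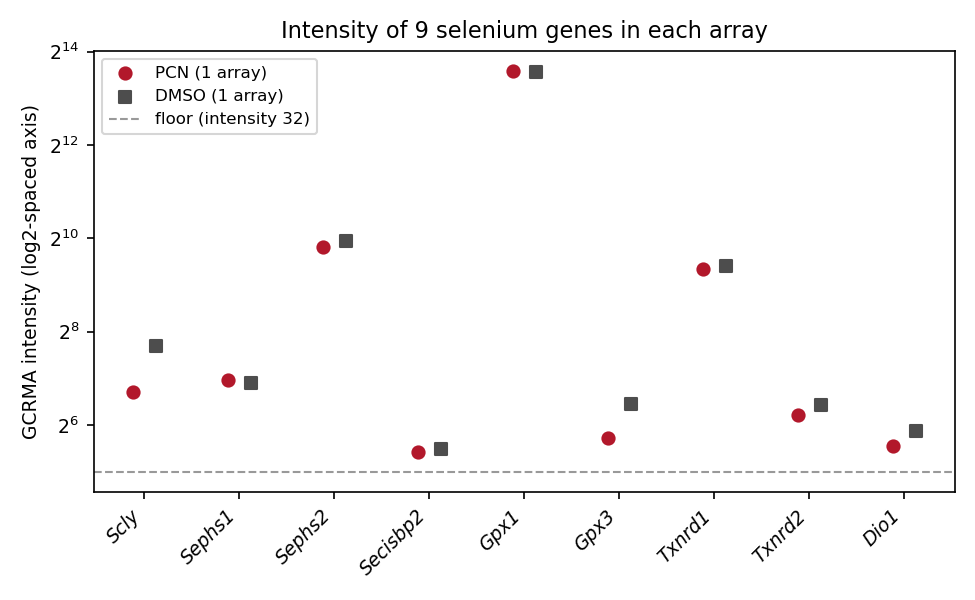
GCRMA intensity (vertical axis, log2-spaced) of the 9 members with a probe set, in the PCN array (red circles) and the DMSO array (grey squares), 1 array each. Scly (104 and 207) and Gpx3 (52.9 and 87.7) are the members with a clear gap, and all points lie above the dashed floor at 32.

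The differences were set beside 2 measures of spread. The 40 bacterial and phage control probe sets above the floor had log2 differences with a mean of -0.04 and an SD of 0.11, from -0.33 to 0.16. These are added from outside and do not contain the spread between cultures. For each member, the middle 95% of the differences of the 500 measured genes nearest to it in mean log2 intensity was also taken. Scly and Gpx3 lay beyond that range and the other 7 members lay inside it. The range holds any differences from treatment or culture as well as array noise. Scly was picked for its difference, so its place beyond the range supports nothing. The labelled cell type was checked on 9 hepatocyte markers with a probe set, while Cps1 was not analysed here. Alb had an intensity of 21383 in the PCN array and 21685 in the DMSO array, and the 8 measured markers had differences from -0.21 to 0.07. Tat, an enzyme of tyrosine breakdown, was under the floor in both arrays, at 14.9 with PCN and 23.9 with DMSO. Of 31 markers of stellate, Kupffer, endothelial and bile duct cells with a probe set, 24 were under the floor in both arrays. Intensities were summed over each list, with the markers under the floor included. The sums in the PCN and DMSO arrays were 396 and 442 for stellate cells and fibroblasts, and 1704 and 1759.7 for Kupffer cells and leukocytes. They were 149 and 136 for endothelium, and 333 and 310.03 for bile duct. The 2 measured bile duct markers differed in opposite directions, Krt19 with 223 in the PCN array and 169 in the DMSO array, and Sox9 with 95.2 in the PCN array and 127 in the DMSO array. Both passed the smaller threshold, as did 11.4% of measured genes in either direction. Nearly all of the Kupffer and leukocyte sum was Cd68, at 1626 and 1690.2, and most of the stellate and fibroblast sum was Dcn, at 313 and 351. The part of these cells in the results was not tested. In such bulk RNA, fewer cells of a type and less RNA per cell cannot be told apart.

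**Figure D2:**
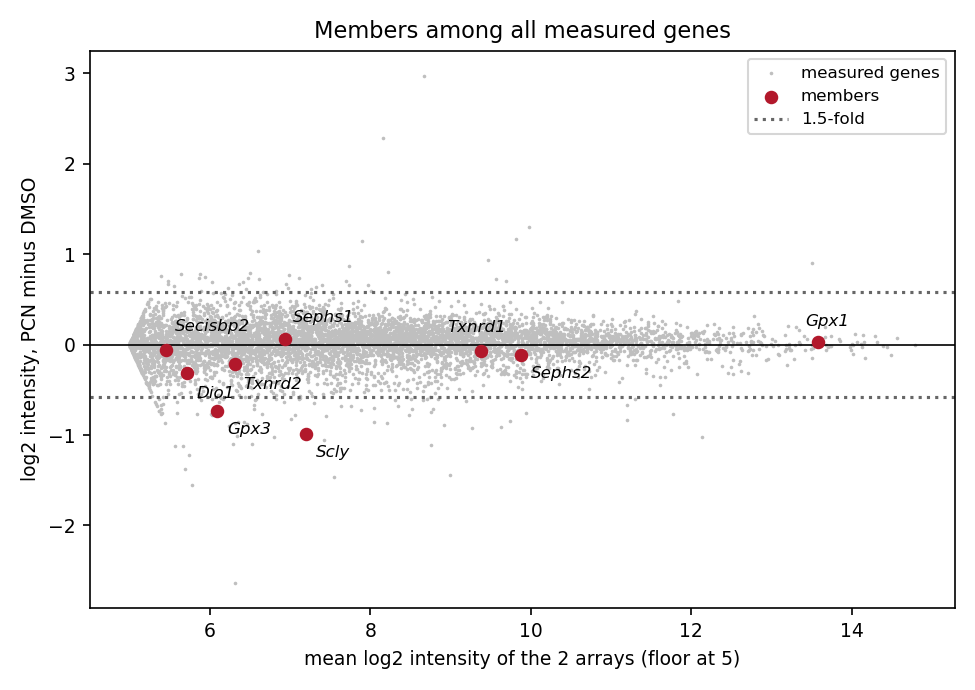
Log2 difference, PCN minus DMSO (vertical axis), against mean log2 intensity of the 2 arrays (horizontal axis) for the 6449 measured genes (grey) and the 9 members (red), with dotted lines at 1.5-fold. Scly at -0.99 and Gpx3 at -0.73 lie below the lower line, and the other members lie in the grey band.

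Scly, the first step of selenium recycling, had an intensity of 104 in the PCN array and 207 in the DMSO array. Its log2 difference was -0.99, the 16th lowest of the 6449 measured genes, where nearby genes ranged from -0.40 to 0.44. Both intensities were well above the floor, so neither was a bound. Just further from 0 stood Tnfsf12, a TNF-family cytokine, at 2.02-fold lower, Ivl, the cornified envelope protein involucrin, at 2.03-fold, and Adh1, an alcohol dehydrogenase, at 2.03-fold. Just nearer 0 stood Tdo2, which degrades tryptophan, at 1.90-fold lower, Rdh7, a retinol dehydrogenase, at 1.89-fold, and Abat, the GABA transaminase, at 1.87-fold. These neighbours were taken in the order of the differences, without uncharacterised gene models. By distance in the pair of log2 intensities, the genes most like Scly were St3gal5 (0.25), Cdhr5 (0.27) and Smpd2 (0.28), a likeness over 2 arrays only. St3gal5 had intensities of 102 and 174, Cdhr5 125 and 196, and Smpd2 97.2 and 172, each given for the PCN array and then the DMSO array. All 3 were lower with PCN, by 1.57-fold to 1.77-fold, which follows from picking them by their nearness to Scly in both arrays.

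Ube2f, the gene before Scly in RefSeq order and an enzyme of the NEDD8 pathway, had intensities of 821 in the PCN array and 736 in the DMSO array, a difference of 0.16 in the other direction. Espnl, the gene after it, was not analysed here. Over all 10 genes, the flanking protein-coding genes gave 10 measured neighbours, with differences from -0.13 to 0.29 and none past the smaller threshold. Around Gpx3 these were Hint1, a nucleotide hydrolase, at 0.06 and Tnip1, a regulator of NF-kB signalling, at 0.29. The flanking genes were looked at after the values of the members were seen.

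The promoter sequences of Scly and Gpx3 are shown because these were the members past 1.5-fold, and that of Gpx1 because it was nearly equal in the arrays. Each is the 250 bases before a RefSeq transcript start in GRCm38.p6, 5′ to 3′ on the gene's strand, which is the plus strand in all 3. Capitals mark the GC box GGGCGG and the CCAAT box on either strand. The windows are chr1:91298088-91298337 for Scly, chr11:54902604-54902853 for Gpx3 and chr9:108338830-108339079 for Gpx1.
Scly: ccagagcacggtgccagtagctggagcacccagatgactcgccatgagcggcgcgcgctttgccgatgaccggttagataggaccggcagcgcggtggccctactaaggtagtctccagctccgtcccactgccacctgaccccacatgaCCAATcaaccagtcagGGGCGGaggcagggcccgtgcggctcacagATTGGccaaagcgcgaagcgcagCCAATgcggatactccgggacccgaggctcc
Gpx3: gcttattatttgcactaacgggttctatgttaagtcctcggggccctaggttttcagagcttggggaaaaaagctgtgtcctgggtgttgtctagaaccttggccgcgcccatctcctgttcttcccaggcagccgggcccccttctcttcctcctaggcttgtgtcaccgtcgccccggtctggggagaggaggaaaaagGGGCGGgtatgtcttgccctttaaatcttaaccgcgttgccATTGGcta
Gpx1: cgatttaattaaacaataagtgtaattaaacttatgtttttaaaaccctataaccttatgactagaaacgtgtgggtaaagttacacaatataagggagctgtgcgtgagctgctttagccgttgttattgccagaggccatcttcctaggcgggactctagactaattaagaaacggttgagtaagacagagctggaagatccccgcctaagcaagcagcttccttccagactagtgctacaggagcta
The Scly window held 1 GC box and 3 CCAAT boxes, the Gpx3 window held 1 of each, and the Gpx1 window held none. The GC content was 65.2% for Scly, 55.2% for Gpx3 and 42.0% for Gpx1. Of 32851 promoter windows of this length, 32.7% held a GC box and 33.8% a CCAAT box, so both are common. Among the 16 windows of the 10 genes, 9 held a GC box and 7 a CCAAT box. The hexamer AGTTCA, to which PXR and related receptors bind in pairs, was present in 1 of the 16 windows, a Txnrd1 window, and in 11.8% of all windows. The antioxidant response element, searched as TGACNNNGC, was found in 1 of the 3 Txnrd1 windows and in 10.2% of all windows. Some of the 16 windows overlap, such as those of Gpx4, and a match is a run of letters, not a bound site.

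The synthetases and the insertion factor were close to equal. Sephs2 makes the selenophosphate from which selenocysteine is built, and is itself a selenoprotein. It had an intensity of 902 in the PCN array and 981 in the DMSO array, 1.09-fold lower. Sephs1, a paralogue without selenocysteine that does not make selenophosphate in mammals, had 125 in the PCN array and 119.5 in the DMSO array, 1.05-fold higher. The pair thus differed in opposite directions, each by less than the largest control difference. Secisbp2 binds the hairpin that directs selenocysteine insertion. It had 43.0 in the PCN array and 44.9 in the DMSO array, 1.04-fold lower and near the floor.

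Other genes of selenocysteine synthesis and insertion were taken from a list of 9, of which 8 were measured. Of these 8, 5 were higher and 3 lower with PCN (4 and 4 with quantile normalization, median centring or loess) and none passed the smaller threshold, with a median log2 difference of 0.03, the same as over all measured genes. The most different was Eefsec, the elongation factor that brings the selenocysteine transfer RNA to the ribosome, with 129 in the PCN array and 154 in the DMSO array, 1.19-fold lower. Trnau1ap, a protein associated with this transfer RNA, had a difference of 0.07, Secisbp2l, a relative of Secisbp2, had 0.05, and Pstk, the kinase of the seryl form, had 0.04. Sars, which charges the transfer RNA with serine, had 0.02. Sepsecs, the enzyme of the last step, was not analysed here.

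The glutathione peroxidases, which reduce peroxides with glutathione, differed from each other. Gpx1 is the cytosolic enzyme of hepatocytes. Its intensity was 12330.4 in the PCN array and 12123 in the DMSO array, a difference of 0.02 that turned to -0.008 with median centring. This was the 31st brightest measured gene of the PCN array, where a bright array signal may be compressed. Gpx3 is the secreted plasma enzyme, made mostly by the kidney. It had 52.9 in the PCN array and 87.7 in the DMSO array, a log2 difference of -0.73, where nearby genes ranged from -0.56 to 0.50. It was the 45th lowest of the measured genes. Gpx3 is a dim gene here, and with a floor of 6 on the log2 scale its difference became a bound of -0.45, under 1.5-fold. Gpx2, the intestinal enzyme, was under the floor in both arrays at 9.27 with PCN and 6.99 with DMSO.

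The thioredoxin reductases, which keep thioredoxin reduced, were both slightly lower. Txnrd1, the cytosolic enzyme, had 650.4 in the PCN array and 682 in the DMSO array, 1.05-fold lower. Txnrd2, the mitochondrial enzyme, had 74.1 in the PCN array and 85.8 in the DMSO array, 1.16-fold lower, where nearby genes ranged from -0.58 to 0.49 around its log2 difference of -0.21. Txnrd3, the testis form, did not reach the floor. Dio1, the deiodinase that turns thyroxine into the active hormone in liver, had 46.9 in the PCN array and 58.5 in the DMSO array. Its log2 difference of -0.32 was the next in size after Scly and Gpx3, and lay inside the range of nearby genes from -0.53 to 0.46.

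The list of all 24 mouse selenoprotein genes widens this comparison beyond the members. Of the 24, 15 were measured, 6 were under the floor in both arrays (Dio2, Gpx2, Selenom, Selenon, Selenov and Txnrd3), and Dio3, Gpx4 and Selenok were not analysed here. The 15 comprised 8 higher and 7 lower with PCN, 7 and 8 with quantile normalization, and 6 and 9 with median centring. Their median log2 difference was 0.02, which became -0.03 with quantile normalization and -0.008 with median centring, beside 0.03 for all measured genes. In the reported setting there was 1 past the smaller threshold in each direction, Gpx3 (lower) and Selenoh (higher). Beside these, 6.17% of measured genes were lower and 5.27% higher by that much. The other 13 were within the threshold there. Msrb1 passed it in the lower direction with quantile normalization (-0.33), median centring (-0.34) or loess (-0.33). Dio1 also passed it in the lower direction with median centring or loess. The 6 measured selenoproteins among the 10 had a median of -0.17, against 0.04 for the 9 measured selenoproteins outside them. Of those 9, 7 were higher and 2 lower (6 and 3 with quantile normalization or median centring). The 10 genes were chosen with earlier results of these data known, so this contrast supports nothing about them. Among the 6, Gpx3, Dio1 and Txnrd2 are limited by signal near the floor.

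Selenoh, a nuclear selenoprotein, had an intensity of 437 in the PCN array and 321 in the DMSO array, 1.36-fold higher. Its log2 difference of 0.44 lay above the range of nearby genes, which ended at 0.34. Msrb1, which repairs oxidised methionine, had 1748 with PCN and 2159 with DMSO, 1.24-fold lower. Its difference of -0.30 lay just below the nearby range, which started at -0.29. Selenoo, a mitochondrial pseudokinase, was 1.19-fold lower. Selenop, the plasma carrier through which the liver exports selenium, had 20620.4 with PCN and 20248 with DMSO, a difference of 0.03 at the 7th brightest gene of the PCN array. The remaining genes stood close to 0. Selenof, Selenos and Selenot, proteins of the endoplasmic reticulum, had 0.04, 0.06 and 0.06, Selenoi, an enzyme of phospholipid synthesis, had 0.04, and Selenow, a small thioredoxin-like protein, had 0.04.

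**Figure D3:**
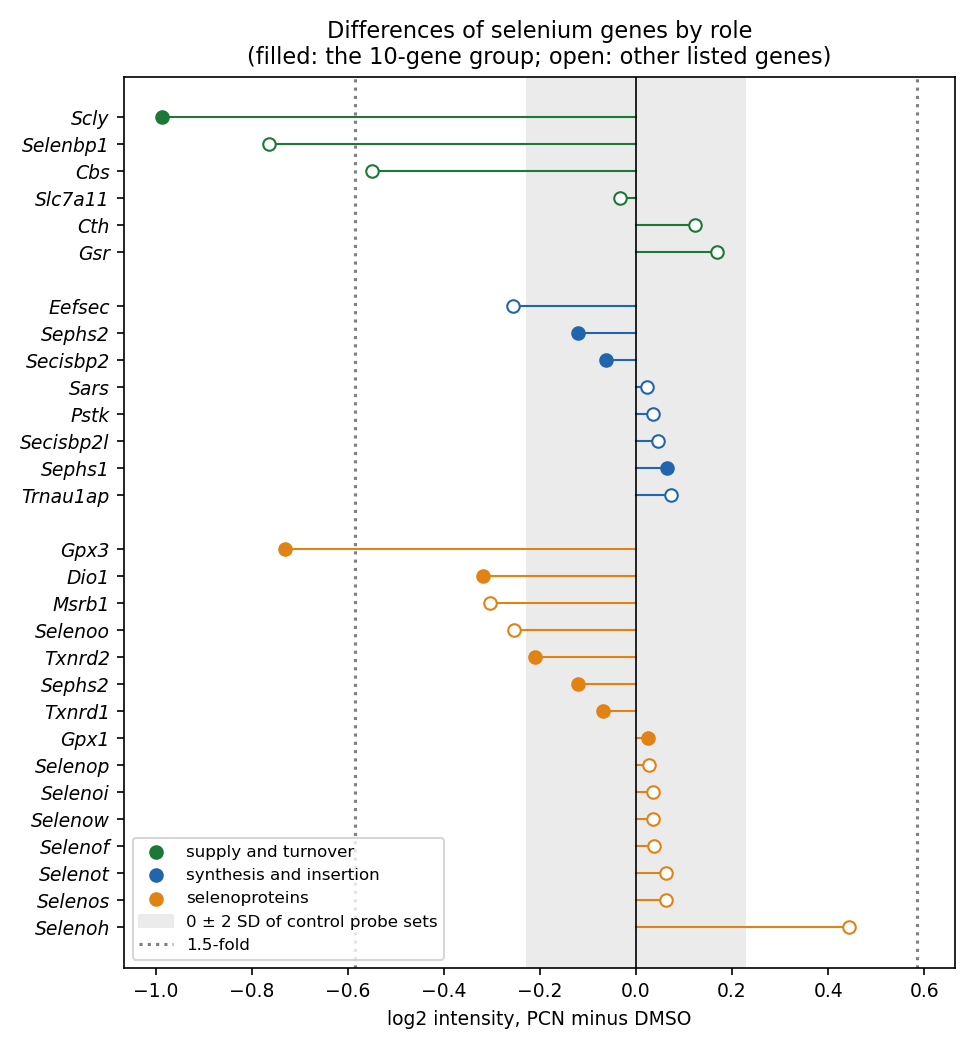
Log2 difference, PCN minus DMSO (horizontal axis), of the measured genes of 3 lists, with the members filled and other genes open, a grey band of 2 control SDs around 0, and dotted lines at 1.5-fold. Scly, Selenbp1 and Gpx3 lie left of the lower line, Selenoh stands apart on the right at 0.44, and most selenoprotein and synthesis genes lie in the band.

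Genes that supply selenium or handle it outside protein synthesis included Scly and also Selenbp1 and Cbs, all lower with PCN. Of 10 listed, 6 were measured, 2 higher and 4 lower with PCN, and these 3 passed the smaller threshold, Scly being the gene picked for its difference. Of all measured genes, 6.17% were lower past this threshold. The median of the 6 was -0.29, which became -0.03 without Scly and -0.55 with a floor of 6, where 5 genes had a value. The settings of this median were added after the values were seen. Selenbp1, a methanethiol oxidase that binds selenium without being a selenoprotein, had 2687 in the PCN array and 4561 in the DMSO array, 1.70-fold lower. Its log2 difference was -0.76, below a nearby range that started at -0.32. Its close relative Selenbp2 was not analysed here, and whether the probe set also reads it was not tested. Cbs, the first enzyme of transsulfuration, had 141 in the PCN array and 206 in the DMSO array, 1.46-fold lower. Cth, the second enzyme of that route, which also acts on selenium analogues of its substrate, was 1.09-fold higher, with 809.8 with PCN and 744 with DMSO. Gsr, which regenerates glutathione, was 1.12-fold higher, and the cystine transporter gene Slc7a11 was close to the floor with a difference of -0.03. Inmt and Lrp2 were under the floor in both arrays.

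The next list held relatives that carry cysteine in place of selenocysteine, and also Nfs1, which is not such a relative. It gave 5 measured genes of 8, 2 higher and 3 lower (1 and 4 with median centring), with a median of -0.07. Msra, which repairs the other form of oxidised methionine, was 1.27-fold lower and the only one past the smaller threshold. In the lower direction, 6.17% of all measured genes passed it. Msrb2 had a difference of -0.16 and Gpx7, a peroxidase of the endoplasmic reticulum, had -0.07. Nfs1, the cysteine desulfurase related to Scly in sequence, had 405 with PCN and 389 with DMSO, a difference of 0.06. Peroxiredoxins and partners of thioredoxin reductase, 10 measured of 12, included 6 higher and 4 lower genes (5 and 5 with quantile normalization, median centring or loess). None of them passed that threshold, and their median was 0.04. The most different of these were Prdx2, a cytosolic peroxiredoxin, at -0.26, Glrx, glutaredoxin, at 0.22, Txnip, the thioredoxin inhibitor, at -0.19, and Txn2, mitochondrial thioredoxin, at 0.15.

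**Figure D4:**
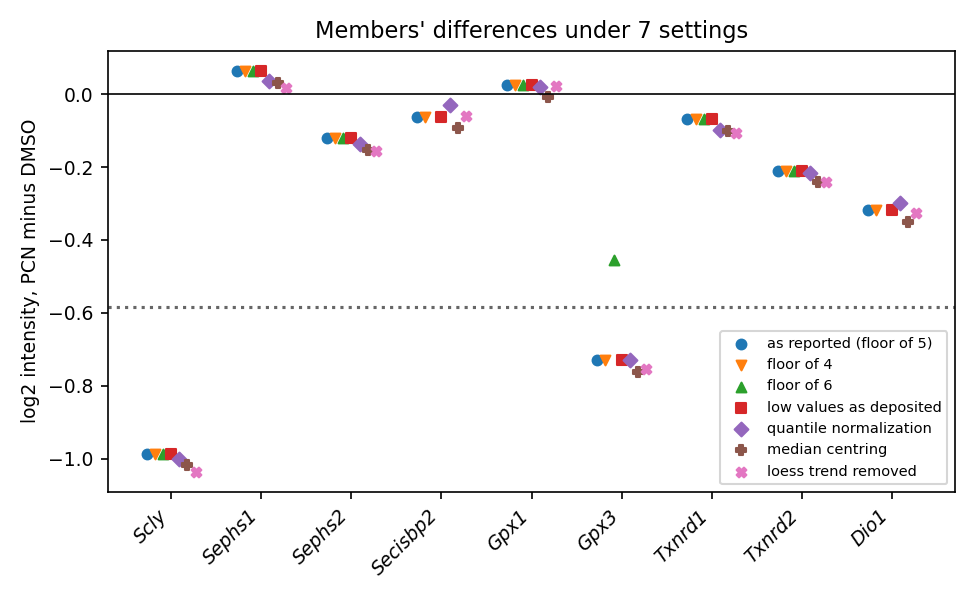
Log2 difference, PCN minus DMSO (vertical axis), of each member under the reported setting and 6 others, with a dotted line at 1.5-fold lower. Scly stays between -1.04 and -0.99, and Gpx3 moves above the line only with a floor of 6, where Secisbp2 and Dio1 have no value.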

How the data were processed

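Biotin-labelled RNA made from 5 µg of pooled total RNA was hybridised to 1 array for PCN and 1 for DMSO, per the labels' protocols. The deposited intensity values are on a linear scale. Per the submitters' processing notes they were made with GCRMA 2.2.0. This method corrects background, brings arrays to a common distribution and summarises probe sets, so a change in total RNA per cell is invisible here. The sources used here give neither the probe set definition nor a genome build, and only the RefSeq promoter windows carry coordinates.

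The intensities were turned into log2 values and subtracted as PCN minus DMSO (Python 3.11.15, numpy 2.4.6, pandas 2.3.3), with values under 5 in 1 array raised to 5. Symbols came from the platform table, and list genes were also matched through RefSeq gene IDs and synonyms. With 1 array a group there was no test, SE or p-value, and counts use a 1.5-fold difference or a smaller threshold of 20% lower or 25% higher. Precision is limited by the number of arrays. The members, the lists and the rules were chosen with earlier results of these data known. All genes of the selenoprotein and synthesis lists, the 4 most different measured genes of each other list except cell type markers, and the 3 genes on each side of Scly are named. Flanking genes and further genes of a list named in the text were chosen after their values were seen. The floor rule, median centring and loess were tested on simulated data, and quantile normalization on a few numbers only. The simulated arrays had no shift or intensity trend, so they cannot show that the scalings remove one. Alternatives were floors of 4 and 6, low values as deposited, quantile normalization, median centring and subtraction of a loess curve over intensity (fraction 0.3, statsmodels 0.14.6). Batches cannot be told apart from the treatment.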

Additional observations from a re-analysis of the deposited data

How the results depend on the processing

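Across 13 genes (the 9 measured members, Selenbp1, Cbs, Selenoh and Msrb1) and 6 other settings, 75 of 76 log2 differences moved by less than the control SD of 0.11. Much of this count was fixed in advance. All 13 genes were above the reported floor in both arrays, so the lower floor and low values as deposited could not change them. Median centring shifted every gene by the same -0.032. The floor of 6 could change only Gpx3 among the genes with a value there. Only quantile normalization and loess could move each gene by its own amount. The 1 value that moved further was Gpx3, at -0.45 with a floor of 6, where its PCN value became a bound. This left 1 member past 1.5-fold in place of 2, and Secisbp2 and Dio1 had no value there. With a threshold of 2-fold the count was 0 in the reported setting, since Scly lies just short of it there. Scly passed 2-fold with median centring (-1.02) and with loess (-1.04), and was just short of it with quantile normalization (-0.9999). Only Gpx1 changed sign, to -0.008 with median centring. Dio1 passed the smaller threshold with median centring or loess, and Msrb1 passed it with either of these or quantile normalization. Without Scly, the median of the members was -0.09. The median of the 15 selenoproteins, 0.02, turned to -0.03 with quantile normalization and to -0.008 with median centring. Without the members it was 0.04 and stayed above 0 in the 6 settings. Of the scalings, median centring moved the median of all genes furthest, by -0.032. No paired analysis was possible because the design has a single array per treatment, and no replicate could be left out. Signal near the floor limits Secisbp2, Dio1, Gpx3 and Txnrd2.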

Other observations

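Genes of glutathione supply and breakdown were 1 higher and 5 lower with PCN of 6 measured, where 42.4% of all measured genes were lower, with a median log2 difference of -0.07. Without Chac1, which degrades glutathione, 1 was higher and 4 were lower. Chac1 was 1.47-fold lower with 57.1 in the PCN array and 83.9 in the DMSO array. Gclc, the catalytic subunit of the first enzyme of synthesis, had a difference of -0.16, and Gss, the second enzyme, had -0.10. Targets of the oxidative stress factor NRF2, to which Txnrd1 belongs, comprised 5 higher and 5 lower genes (2 and 8 with median centring or loess, 1 and 8 with quantile normalization). Their median was -0.01, or 0.004 with a floor of 6, and none was 20% or more lower or 25% or more higher. Their largest differences were 0.24 for Osgin1, a growth inhibitor, and -0.20 for the quinone reductase gene Nqo1. Hmox1, heme oxygenase 1, had 1917 with PCN and 1911 with DMSO.

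Genes that act with thyroid hormone, to which Dio1 belongs, were 3 higher and 4 lower of 7 measured, with a median of -0.02. Likewise none was past these sizes in the reported setting, though Dio1 was with median centring or loess. With a floor of 6, where Dio1 and G0s2 had no value, the median was 0.04 over 3 higher and 2 lower genes. G0s2, an inhibitor of fat breakdown, had 42.5 with PCN and 52.8 with DMSO, a difference of -0.31 close to that of Dio1. Klf9, a thyroid hormone-induced transcription factor, had 0.15, and Bcl3, an NF-kB regulator, had -0.15. The receptor genes Thra and Thrb did not reach the floor, and Thrsp, a lipogenic hormone target, had 299 with PCN and 286 with DMSO.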
